A study of Rattus norvegicus with 12 samples.

Results

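The question here was what raising the dose of A-998679 from 100 to 200 mg/kg/day added in rat liver. Total RNA from the livers of male Sprague Dawley rats, 176 to 200 g by the labels, was hybridized to Affymetrix rat arrays, 1 array per rat. The 2 groups compared hold 3 rats each, 6 of the 12 in the series. All rats were dosed by mouth for 5 days, with A-998679 suspended in 0.2% HPMC, a cellulose derivative, at 10 ml/kg, and fasted overnight before necropsy. Titles and design label the highest dose 200 mg/kg, but the description field of the same 3 rats says 300 mg/kg; they are called the 200 mg/kg rats here. The vehicle and 30 mg/kg rats, also 3 each, entered the estimate of the spread, are shown as background, and serve a short set of comparisons with vehicle near the end.

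A-998679 is an oxadiazole that activates the aryl hydrocarbon receptor (AhR). This receptor is held in the cytoplasm until a ligand binds; it then pairs with Arnt in the nucleus and turns on genes such as Cyp1a1 and Cyp1a2, whose promoters carry dioxin response elements. Some AhR targets, among them Nqo1, are also turned on by Nrf2, which Keap1 marks for degradation until electrophiles or oxidants release it. Liver answers foreign chemicals further through the nuclear receptors CAR and PXR, which turn on enzymes of oxidation and conjugation and the pumps that export conjugates.

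Of the 29176 probe sets on the array, 21886 had a value in all 6 rats and were compared, 588 had a value in none of the 6, and 6702 in some. No source used here says why a value is empty. Empty values lay mostly in dim probe sets: the median level was 5.63 on the log2 scale in the probe sets compared and 2.69 in the rest. Levels are log2 intensities throughout, and differences are 200 minus 100 mg/kg on that scale unless stated. Array medians over the 12 rats lay between 5.21 and 5.26. Over the probe sets compared, arrays correlated at 0.910 to 0.924 within the 100 mg/kg group, at 0.918 to 0.927 within the 200 mg/kg group and at 0.904 to 0.926 between them. The markers of hepatocytes were among the brightest, with Alb, the gene of albumin, at 12.84 to 13.34 in the 6 rats. A level in whole liver does not tell fewer cells of a type from less RNA per cell.

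No probe set passed the test between the doses in either direction at an adjusted p under 0.05 (limma with Benjamini-Hochberg adjustment; smallest adjusted p = 0.1367). At an unadjusted p under 0.05, 654 probe sets (2.99%) were higher and 690 (3.15%) lower at 200 mg/kg. The methods' t-test, which the study names for its general statistics and not for these arrays, left 0 after Benjamini-Hochberg adjustment, with 573 higher and 664 lower at the unadjusted threshold. The 2 doses did not overlap in 1239 probe sets with the higher levels at 200 mg/kg (5.66%) and in 1359 with the lower ones (6.21%). Differences of 2-fold or more were seen in 584 probe sets higher (2.67%) and 624 lower (2.85%) at 200 mg/kg. What follows therefore gives levels and differences, none of which passed.

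The precision differed with the level. The 95% interval of the difference lay within a 2-fold change either way in 13111 probe sets (59.9%). That share was 95.57% of the 2934 probe sets above a level of 8 and 93.96% of the 6160 between 6 and 8, but 0.52% of the 3462 below 3.84, the 25th percentile of all values, which serves as a floor here. The intervals of nearly all bright probe sets thus held no 2-fold change, and those of dim ones nearly always did. The number of arrays, 3 a group, limits the precision of every value.

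**Figure D1:**
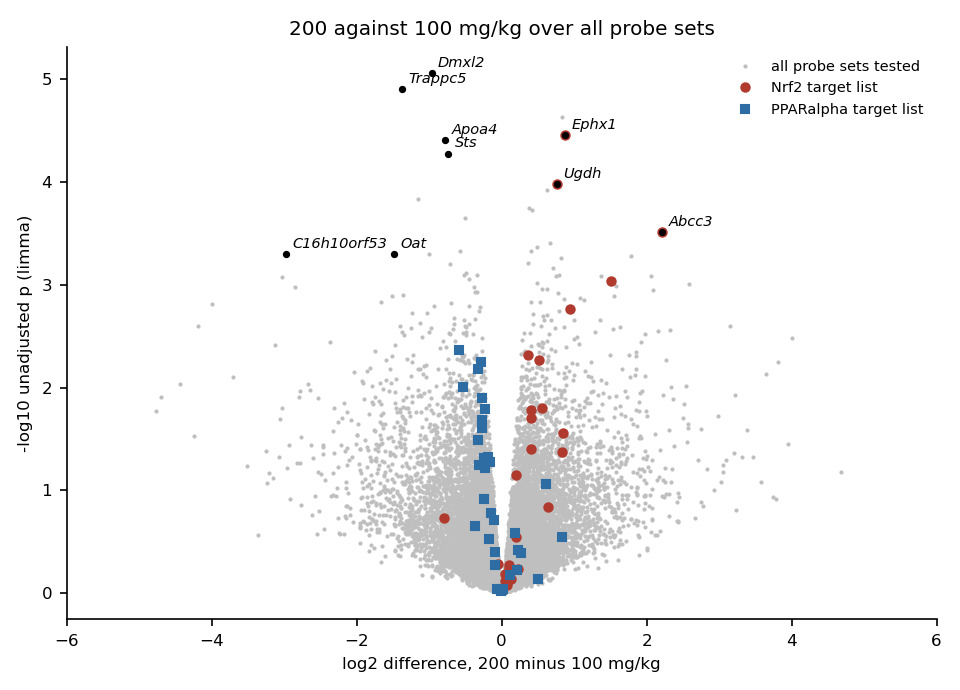
Each point is 1 of the 21886 probe sets compared, with the log2 difference (200 minus 100 mg/kg) on the x axis and −log10 of the unadjusted limma p on the y axis. Red circles are the 26 genes of the Nrf2 target list, 24 of them right of 0, and blue squares the 33 of the PPARα target list, 23 of them left of 0; black points are the named genes.

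The genes of smallest p on the higher side were led by enzymes of detoxification and a conjugate pump. Ephx1, microsomal epoxide hydrolase, which opens reactive epoxides to diols, was at 11.36, 11.97 and 11.56 in rats 1 to 3 at 100 mg/kg and at 12.65, 12.37 and 12.49 at 200 mg/kg. The groups did not overlap, and the difference was 0.88 (95% interval 0.57 to 1.18, 1.83-fold; adjusted p = 0.1716). Ugdh, which makes the UDP-glucuronic acid that all glucuronidation uses, was at 10.10, 10.27 and 10.27 at 100 mg/kg and at 11.25, 10.81 and 10.86 at 200 mg/kg. Again the doses did not overlap (difference 0.76, interval 0.46 to 1.06, adjusted p = 0.326).

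Abcc3, a pump of the basolateral membrane that moves glucuronides from hepatocytes to blood, had the largest difference among the 10 leading higher genes. It had no value in any vehicle rat and a value in 1 rat at 30 mg/kg, at 4.58. At 100 mg/kg it was at 4.91, 6.64 and 5.45, and at 200 mg/kg at 7.77, 8.25 and 7.62. The difference was 2.21 (interval 1.33 to 3.10, 4.64-fold; adjusted p = 0.521), from a fit that drops the 5 arrays with no value.

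Gch1, the first enzyme of tetrahydrobiopterin synthesis, was at 9.64, 9.28 and 9.45 at 100 mg/kg and at 10.12, 9.94 and 10.19 at 200 mg/kg (difference 0.63). The vehicle rats were at 9.62 to 9.93, so the 200 mg/kg rats stood less far from vehicle than from 100 mg/kg. The other 6 leading higher genes differed by 0.37 to 0.81: the translation and RNA transport genes Pabpc4 (0.37), Eef1g (0.41), Ran (0.42) and Mrpl57 (0.49), and Dap (0.37) and Gcnt2 (0.81). The other probe set of Mrpl57 differed by −0.04. For Pabpc4, a protein that binds poly(A) tails, the rats of each dose were close together, at 9.05 to 9.16 and at 9.46 to 9.50.

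On the lower side, Dmxl2, a partner of the proton pump that acidifies vesicles, had the smallest p of all named genes. It was at 6.78, 6.87 and 7.14 at 100 mg/kg and at 200 mg/kg at 5.92 and 5.98 in rats 1 and 3, with rat 2 just above them (difference −0.97, interval −1.26 to −0.67, adjusted p = 0.1367). The levels did not follow dose: the vehicle rats were at 7.13 to 7.35 and the 30 mg/kg rats at 6.01 to 6.22, close to the 200 mg/kg rats. Trappc5, a subunit of a vesicle tethering complex, was at 7.78, 8.55 and 7.58 at 100 mg/kg and at 6.71, 6.61 and 6.47 at 200 mg/kg (difference −1.37, interval −1.81 to −0.94, adjusted p = 0.1367). Its 3 probe sets disagreed, with differences between −1.37 and −0.05.

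Apoa4, an apolipoprotein of triglyceride-rich particles, was at 11.56, 11.08 and 11.63 at 100 mg/kg and at 10.67, 10.74 and 10.53 at 200 mg/kg, with no overlap (difference −0.78, interval −1.05 to −0.50, adjusted p = 0.1716). Sts, steroid sulfatase, which frees steroids from their sulfates, was at 8.23 to 8.51 and at 7.50 to 7.85 (difference −0.73). Oat, the mitochondrial ornithine aminotransferase, was at 10.59, 10.20 and 10.23 at 100 mg/kg and at 7.89, 9.36 and 9.31 at 200 mg/kg (difference −1.49, interval −2.18 to −0.79). Rat 1 lay furthest from the 100 mg/kg rats. Of the other 5 leading lower genes, Mup5 (−0.57), Fancl (6.02 to 6.22 at 100 mg/kg and 4.88 to 5.34 at 200 mg/kg), Bphl (−0.71) and Arl6ip1 (−0.49) were above the floor in all 6 rats, whereas C16h10orf53 (−2.97) was below it in all 3 rats at 200 mg/kg.

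**Figure D2:**
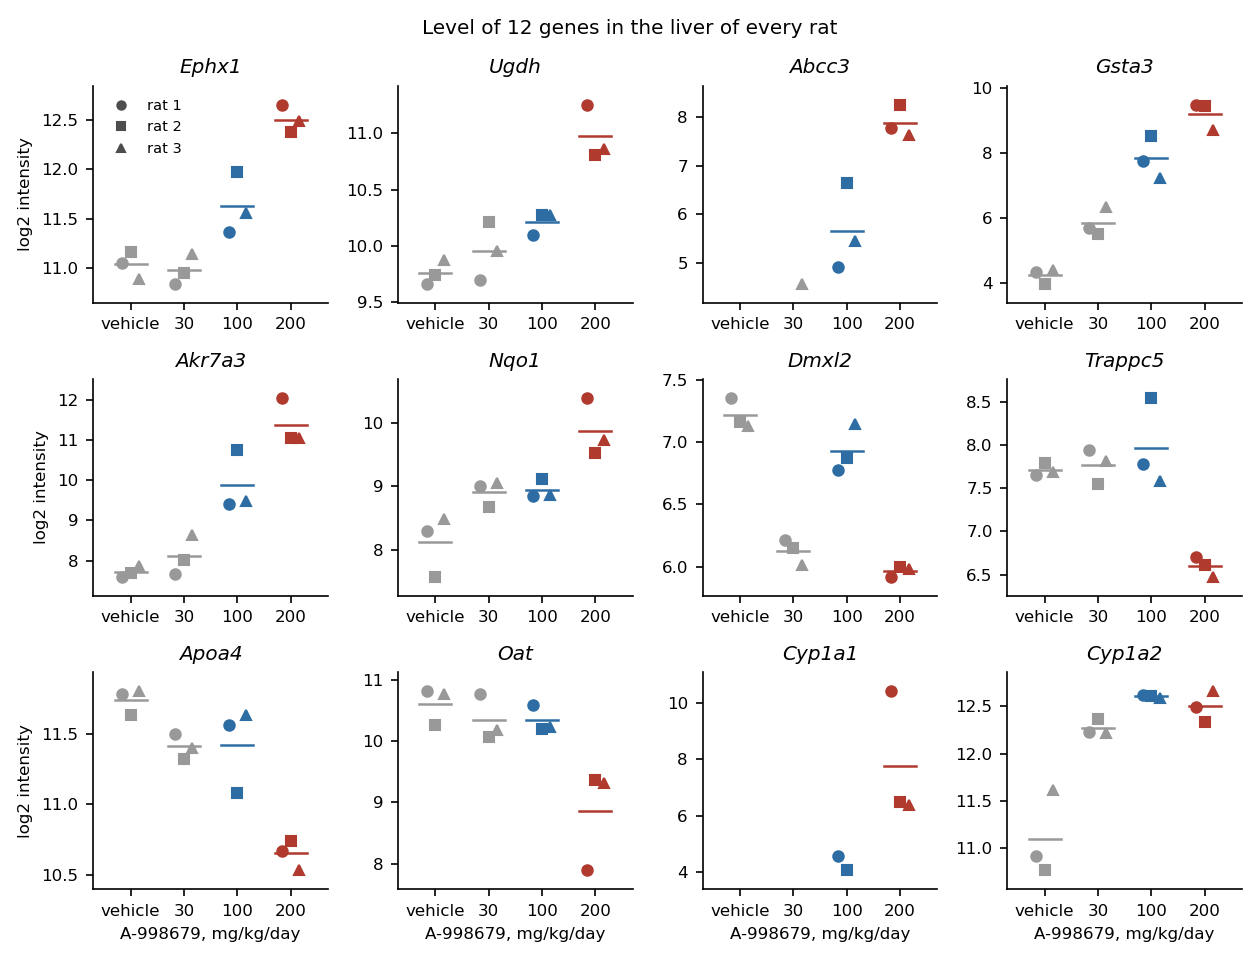
Log2 intensity (y axis) of 12 genes in every rat of the 4 groups (x axis, dose in mg/kg/day); marks are single rats and lines are means of 3, and an empty value has no mark. In Ephx1, Ugdh, Abcc3, Gsta3, Akr7a3 and Nqo1 the 200 mg/kg rats (red) lie above the 100 mg/kg rats (blue), in Dmxl2, Trappc5, Apoa4 and Oat below them, and in Cyp1a2 the doses overlap.

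The promoters of these genes were searched for GCGTG, the core of the dioxin response element, and TGACNNNGC, the core of the antioxidant response element that Nrf2 binds, on both strands in the 250 bases before the RefSeq start. GCGTG was in 27.2% of all 27457 windows, in 5 of the 9 leading higher genes with a window and in 5 of the 10 leading lower. TGACNNNGC was in 10.2% of all windows, in 1 of 9 and in 3 of 10. The windows of the gene of smallest p on each side that holds a match are shown to set the letters beside the levels above, with matches in capitals (build GRCr8; Dmxl2, minus strand, chr8:63781117-63781366; Ugdh, plus strand, chr14:43202268-43202517).
Dmxl2: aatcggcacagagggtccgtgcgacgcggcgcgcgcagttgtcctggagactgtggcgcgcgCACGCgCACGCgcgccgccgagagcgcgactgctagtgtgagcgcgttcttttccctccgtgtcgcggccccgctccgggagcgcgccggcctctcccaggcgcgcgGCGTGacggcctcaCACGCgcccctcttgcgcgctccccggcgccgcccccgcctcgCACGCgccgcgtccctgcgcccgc
Ugdh: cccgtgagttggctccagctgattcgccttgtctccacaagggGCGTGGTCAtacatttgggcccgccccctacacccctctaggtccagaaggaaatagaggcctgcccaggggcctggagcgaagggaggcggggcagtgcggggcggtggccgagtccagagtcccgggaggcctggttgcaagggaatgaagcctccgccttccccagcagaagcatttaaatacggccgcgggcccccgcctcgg
The Dmxl2 window holds 5 matches to GCGTG and none to TGACNNNGC. In the Ugdh window the 2 matches overlap, with GCGTG read forward and TGACNNNGC on the opposite strand. The first of 2 windows of Ephx1, the gene of smallest p on the higher side, has neither. A match is a run of letters and does not show that a factor binds.

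The Cyp1a genes, the best known AhR targets, differed from each other. Cyp1a1, which oxidizes polycyclic aromatic hydrocarbons, was at 4.58 and 4.07 in rats 1 and 2 at 100 mg/kg, had no value in rat 3, and was at 10.41, 6.50 and 6.37 at 200 mg/kg. With the empty value set to the floor, the difference was 3.59 (12.1-fold) and the 2-sided exact permutation test gave p = 0.1, the smallest that 3 rats against 3 allow. Rat 1 at 200 mg/kg carried much of it, and without that rat the difference was 2.27 (4.82-fold). Cyp1a2, the form that normal liver already makes, was at 12.62, 12.61 and 12.59 at 100 mg/kg and at 12.49, 12.34 and 12.66 at 200 mg/kg. Its difference was −0.11 with an interval of −0.48 to 0.26, which holds no 2-fold change in either direction (exact p = 0.4).

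Among the 11 genes of the AhR list that were compared, 3 were higher at an unadjusted p under 0.05 and 0 lower, against 2.99% and 3.15% of all probe sets, and the median difference was −0.02 (0.0012 over 11328 genes, 1 probe set each). The 3 were Nqo1, Selenbp1 and Arnt. Nqo1, a quinone reductase, was at 8.84, 9.11 and 8.87 at 100 mg/kg and at 10.40, 9.52 and 9.73 at 200 mg/kg (difference 0.94, interval 0.43 to 1.46). Selenbp1, a selenium-binding protein that oxidizes methanethiol, differed by 0.30. Arnt, the partner of AhR, was dim, at 2.64 to 3.60 and at 3.91 to 4.77, with a difference of 1.14. Its mean was 4.41 in vehicle rats and 4.37 at 200 mg/kg, so the 200 mg/kg rats stood near vehicle. The receptor gene Ahr overlapped between the doses, at 5.77 to 6.93 and at 5.87 to 6.34 (difference −0.19, interval −0.96 to 0.57), and Aldh3a1 too, with 1.76 to 4.54 at 200 mg/kg. Inmt, a methyltransferase, was at 8.30 to 8.91 at 100 mg/kg and at 6.47 to 7.98 at 200 mg/kg (difference −1.15, interval −2.32 to 0.02).

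The list of Nrf2 targets had the highest median of the 30 pathway lists. Of its 26 genes compared, 24 lay above 0, the median difference was 0.38, 13 were higher at an unadjusted p under 0.05 and 0 lower, and 12 did not overlap between the doses. The 2.99% and 5.66% of all probe sets given above are the background of these counts. For the other lists too, 2.99% higher and 3.15% lower are the background, over all levels, of counts at the unadjusted threshold. These shares were larger in bright probe sets. They were 9.85% higher and 9.61% lower at levels of 10 to 11, and 6.69% and 15.41% above 11. Lists of bright genes are to be read beside those shares. The Nrf2 list shares 4 genes with the list of CAR and PXR targets, 1 with the AhR list, 1 with glucuronidation and 1 with the glutathione transferases. Ephx1, Abcc3 and Nqo1, described above, thus also stand on lists of CAR and PXR or AhR targets. Ugdh is shared with glucuronidation, a list drawn by function and not by regulator.

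Akr7a3, an aldehyde reductase that acts on aflatoxin dialdehyde, was at 9.41, 10.74 and 9.47 at 100 mg/kg and at 12.04, 11.05 and 11.05 at 200 mg/kg (difference 1.51, interval 0.74 to 2.27). The genes of glutathione synthesis and reduction lay higher by less: Gclc and Gclm, the catalytic and modifier subunits of glutamate-cysteine ligase, by 0.56 and 0.51, and Gsr, glutathione reductase, by 0.40. Gclm was at 9.21, 9.01 and 9.05 at 100 mg/kg and at 9.88, 9.36 and 9.57 at 200 mg/kg. Gclc was at 8.99 to 9.25 and at 10.33, 9.49 and 9.31, with rat 1 well above the other two. Hmox1, heme oxygenase (0.41), Txnrd1, thioredoxin reductase (0.41), Srxn1, sulfiredoxin (0.83), Osgin1 (0.85) and the autophagy adaptor Sqstm1 (0.36) make up the rest of the 13. Osgin1 had a mean of 10.66 in vehicle rats, 9.84 at 100 mg/kg and 10.7 at 200 mg/kg, so its 200 mg/kg rats stood near vehicle. Over its 3 probe sets compared, Sqstm1 differed by 0.03 to 0.50. Nfe2l2, the gene of Nrf2 itself, and Keap1 both differed by 0.04, with intervals of −0.25 to 0.34 and −0.16 to 0.25. The other probe set of Keap1 differed by 0.35. Akr1b8, the lowest of the list at −0.79, was below the floor in all 6 rats.

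Rat 1 at 200 mg/kg, which had the most Cyp1a1, was also the highest of the 6 rats in 11 of these 13 genes. Without it the median of the Nrf2 list was 0.29 and 7 of the 26 genes were higher at an unadjusted p under 0.05, with 23 above 0. Over all 12 ways of leaving out 1 rat the median lay between 0.29 and 0.45 and the count between 7 and 14, with 8 without rat 1 at 100 mg/kg.

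**Figure D3:**
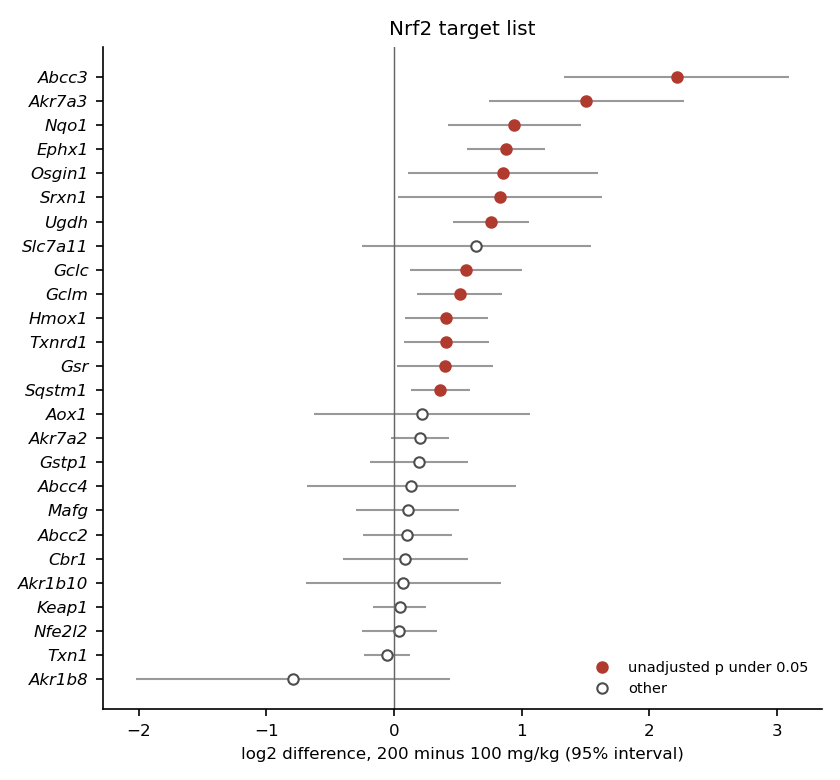
Log2 difference (200 minus 100 mg/kg, x axis) with its 95% interval for each of the 26 Nrf2 targets compared (y axis); filled red points have an unadjusted p under 0.05. The differences run from −0.79 (Akr1b8) to 2.21 (Abcc3), with 13 filled points, all right of 0.

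Of 19 glutathione transferases, which couple glutathione to electrophiles, 4 were higher at an unadjusted p under 0.05 and 0 lower, with a median of 0.16. Gsta3, an alpha class form, was at 7.77, 8.53 and 7.23 at 100 mg/kg and at 9.49, 9.46 and 8.70 at 200 mg/kg (difference 1.38, interval 0.69 to 2.06, 2.59-fold). Its level stood in order of dose over all 4 groups, from 3.98 to 4.40 in vehicle rats. Gsto1 (0.32), Mgst2 (0.34) and Gstm4 (0.41) were the other members, and Gsta2 had no probe set of its own. Without rat 1 at 200 mg/kg the median of this list was 0.21, and the count of higher members was 2 without that rat, rat 1 or rat 3 at 100 mg/kg, with 1 left when rat 3 at 200 mg/kg was omitted.

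Of 11 glucuronidation genes, 5 were higher at an unadjusted p under 0.05 and 0 lower (median 0.20). These were Ugdh, Ugp2, which makes UDP-glucose (0.48), the transferases Ugt2b1 (1.07) and Ugt2a1 (0.86), and Cryl1, an L-gulonate dehydrogenase further along the glucuronate route (1.18). Of the 11 genes 3 lay below 0, among them Ugt8 (−1.26), the member furthest from 0. Ugt2b1 was at 10.05, 10.66 and 9.34 at 100 mg/kg and at 11.26, 10.79 and 11.21 at 200 mg/kg. Ugp2 was at 10.92, 10.97 and 10.98 and at 11.35, 11.50 and 11.45, the tightest of the 5 within each dose. Entpd5, which clears UDP in the endoplasmic reticulum where these transferases work, is outside the list and was at 8.91 to 9.35 and at 9.53 to 10.08 (difference 0.72). Its 3 probe sets differed by 0.19 to 0.72.

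Of 20 targets of CAR and PXR, 5 were higher at an unadjusted p under 0.05 and 2 lower, with a median of 0.04. Abcb1a, a xenobiotic exporter, differed by 0.63 (6.56 to 6.71 at 100 mg/kg and 7.04 to 7.55 at 200 mg/kg), and Cyp3a9 by −1.67 (9.18 to 9.93 and 7.65 to 8.25). Of its 5 higher members 3 are shared with the Nrf2 list and 1 with glucuronidation. NADPH supply, which the reductases draw on, had 2 of 11 genes higher and 0 lower: malic enzyme Me1 (0.57) and transketolase Tkt (0.60). Tkt was highest in rat 1 at 200 mg/kg, at 9.83 against 8.88 and 9.09 in the other rats.

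Cholesterol synthesis genes had 5 of 20 members higher at an unadjusted p under 0.05 and 0 lower, with a median of 0.27. The member furthest from 0, Mvd, went the other way (−1.95). Pmvk, a kinase of the mevalonate pathway, was at 5.08 to 5.86 at 100 mg/kg and reached 6.51 at 200 mg/kg, with no overlap (difference 0.71). Msmo1 (0.80), Idi1 (0.69) and Cyp51 (0.46), which act further down the pathway, overlapped between the doses. In these named higher genes the 100 mg/kg mean lay below the vehicle mean, which widened the step to 200 mg/kg. Cyp51 differed from vehicle by −0.53 at 100 mg/kg and by −0.07 at 200 mg/kg, so its 200 mg/kg rats stood near vehicle. Pmvk differed from vehicle by −0.42 and 0.29. For Msmo1 and Idi1 the 200 mg/kg mean lay further from vehicle than the 100 mg/kg mean did. The count of higher members was 0 without rat 3 at 100 mg/kg, 1 without rat 3 at 200 mg/kg, 2 without rat 3 at 30 mg/kg, and 3 when rat 1 at 200 mg/kg or rat 1 of the vehicle group was omitted.

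Some lists of hepatocyte metabolism lay lower, whereas fatty acid synthesis (22 genes, median 0.04) did not. Of 33 targets of PPARα, the receptor that turns on fatty acid oxidation, 11 were lower at an unadjusted p under 0.05 and 0 higher. The share lower was 3.15% of all probe sets but 15.41% of those above a level of 11, where Acadm and Cyp4a1 lie. Of the 33 targets 23 were below 0, with a median of −0.16. The member furthest from 0, Fgf21, went the other way (0.83). Crot, which moves fatty acids out of peroxisomes as carnitine esters, was at 11.17, 11.16 and 11.23 at 100 mg/kg and at 10.39, 10.99 and 10.44 at 200 mg/kg (difference −0.58, interval −0.95 to −0.22). Acadm, the medium-chain acyl-CoA dehydrogenase, was at 11.79 to 11.88 and at 11.40 to 11.65 (difference −0.28). Ehhadh (−0.53), Hadha (−0.32), Slc25a20 (−0.28) and Cyp4a1 (−0.32), of peroxisomal and mitochondrial oxidation, lay lower as well, but a further probe set of Hadha differed by 0.20. In the 11 genes the lowest rat was rat 1 or rat 3 at 200 mg/kg. The median without 1 rat ran from −0.20 to −0.11 and the count of lower members from 6, without rat 3 at 100 mg/kg, to 12, with 7 without rat 3 at 200 mg/kg.

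Of 20 genes of the urea cycle and of the zoned handling of ammonia and glutamine, 7 were lower at an unadjusted p under 0.05 and 0 higher (median −0.19). Besides Oat these were Sds, serine dehydratase (−1.22), Glul, glutamine synthetase of the pericentral cells (−0.77), Hal, histidase (−0.45), Asl, argininosuccinate lyase (−0.35), Gls2, liver glutaminase (−0.35), and Cps1, which starts the urea cycle (−0.17). Asl had a mean of 10.71 in vehicle rats, 11.05 at 100 mg/kg and 10.70 at 200 mg/kg, so its 200 mg/kg rats stood near vehicle. In the others the 200 mg/kg mean lay below the vehicle mean. Sds was at 9.84, 10.26 and 9.64 at 100 mg/kg and at 8.68, 8.22 and 9.18 at 200 mg/kg. Glul was at 10.18, 9.94 and 9.96 and at 8.38, 9.92 and 9.46, so rat 1 stood apart as it did for Oat. Without that rat 3 of the 20 genes were lower at the same threshold. Of 29 genes of gluconeogenesis and glycolysis 7 were lower and 1 higher, among them Fbp1 (−0.33), Pck1 (−0.37), Tat (−0.79), Gpt (−0.46) and Ldha (−0.38), all without overlap, although the list's median was 0.01. The 7 became 4 when rat 1 or rat 3 at 100 mg/kg was omitted. Sds stands on both this list and the urea list. Gpt had a mean of 9.24 in vehicle rats, 9.64 at 100 mg/kg and 9.18 at 200 mg/kg, so its 200 mg/kg rats stood near vehicle. For Fbp1, Pck1, Tat and Ldha the 200 mg/kg mean lay below the vehicle mean.

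Male-predominant genes, which the pulsed growth hormone of male rats maintains, had the lowest median of the 30 pathway lists, −0.48, with 8 of 16 lower at an unadjusted p under 0.05 and 0 higher. Cyp2c11, the main male P450, was at 12.29, 12.05 and 12.38 at 100 mg/kg and at 11.45, 10.47 and 12.08 at 200 mg/kg (difference −0.91, interval −1.56 to −0.26). Obp3, an alpha-2u-globulin, was at 10.94 to 11.28 and at 10.94, 8.35 and 9.52 (difference −1.51). Sult1e1, estrogen sulfotransferase, was at 12.44 to 12.67 and at 12.24, 10.93 and 11.62 (difference −0.93).

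Rat 2 at 200 mg/kg was the lowest of the 6 rats in 6 of these 8 genes. Without it the median was −0.31, with 6 lower and 1 higher. The count of lower members was 3 without rat 3 at 100 mg/kg, 4 without rat 1 of that dose and 5 without rat 1 at 200 mg/kg. Stac3 differed by −1.67 and Cyp2c13 by −0.42. Of the 15 female-predominant genes 1 was higher and 3 lower: Cyp2c12, the main female P450, was at 9.40 to 9.71 and at 11.21, 11.63 and 10.07 (difference 1.38), whereas Cyp3a9 and Hao2 (−0.81) lay lower.

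The Cyp genes of families 2 to 4 overlap with both sex lists; of 36, 7 were lower and 1 higher at the threshold, with a median of −0.10. Rat 3 of either dose moved the count of lower ones, to 2 when the 100 mg/kg rat was omitted and to 12 when the 200 mg/kg rat was. Among the genes of growth hormone signalling, Ghr, the receptor, differed by −0.29 and Igf1 by −0.19 (interval −0.41 to 0.03).

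Acute phase and plasma protein genes lay below 0 in 26 of 27 cases, with 8 lower at an unadjusted p under 0.05, 0 higher and a median of −0.19. Among all probe sets above a level of 11, 15.41% were lower at that threshold. Lcn2, a neutrophil gelatinase-associated lipocalin that liver makes in inflammation, was at 5.14, 6.88 and 5.15 at 100 mg/kg and at 4.85, 3.42 and 4.70 at 200 mg/kg (difference −1.40). Its mean was 4.33 in vehicle rats, 4.27 at 30 mg/kg and 4.33 at 200 mg/kg, so the 100 mg/kg group stood apart. The count of lower members moved with single rats: it was 3, 2 and 17 when rats 1, 2 and 3 at 200 mg/kg were left out in turn, and 3, 3 and 5 for those at 100 mg/kg. The 8 hepatocyte markers were all below 0, 5 of them at the threshold, with a median of −0.20: Apob at 12.62 to 12.74 and at 12.42 to 12.58, and Alb overlapping between the doses (difference −0.19). Their count at the threshold was 0, 3 and 2 when rats 1, 2 and 3 at 100 mg/kg were omitted in turn, and 0, 1 and 7 for those at 200 mg/kg. These markers are not separate from the lists above. The acute phase list holds 4 of them, 2 at the threshold, and the urea list holds Cps1. Tat is also counted with gluconeogenesis.

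These small differences in very bright genes stand beside a shift shared by most of the brightest probe sets. Whether that shift came from the arrays or from the RNA was not tested. Among the 113 probe sets above a level of 12 the median difference was −0.13 and 87.61% lay below 0, whereas medians from 4 to 10 lay within 0.02 of 0. In these brightest probe sets rats 1 and 2 at 200 mg/kg had medians of −0.20 and −0.19 relative to the 100 mg/kg mean, and rat 3 one of 0.01. After quantile normalization, which gives every array the same distribution, the median of the 113 was −0.004. The acute phase list then had a median of −0.06 with 21 of 27 below 0 and 3 lower at the threshold. The hepatocyte markers then had a median of −0.09, the PPARα targets −0.11 with 7 lower, the urea list −0.16 with 6 lower, the male-predominant list −0.47 with 7 lower and the Nrf2 list 0.40 with 13 higher.

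The counts by list also moved with the variance model, which leaves the medians as they are. By the methods' t-test 7 Nrf2 targets and 0 cholesterol genes were higher, and 2 male-predominant genes, 6 PPARα targets, 4 urea genes, 4 acute phase genes and 1 Cyp gene were lower. In limma without the variance trend these counts were 9, 1, 5, 5, 6, 2 and 4.

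**Figure D4:**
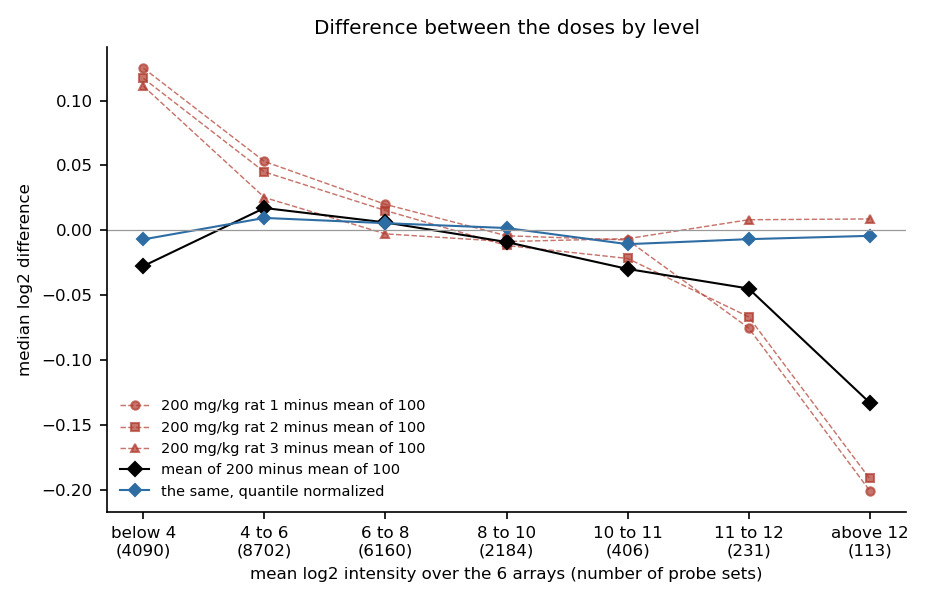
Median log2 difference (y axis) of probe sets binned by mean log2 intensity over the 6 arrays (x axis, number of probe sets in brackets): mean of 200 minus mean of 100 mg/kg as deposited (black) and after quantile normalization (blue), and each 200 mg/kg rat minus the 100 mg/kg mean (red). Above 12 the black line is at −0.13, with rats 1 and 2 near −0.20 and rat 3 near 0.

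Several lists of other processes had medians near 0. None of 35 proteasome genes was higher and 1 was lower, with every interval within a 2-fold change. The same held for the intervals of 44 genes of oxidative phosphorylation, of which 40 were below 0 by little (median −0.07, 1 lower). Among 32 genes of endoplasmic reticulum stress and heat shock 2 were higher and 1 lower (median −0.003), with Atf4 at 9.06 to 9.15 and at 10.01, 9.41 and 9.36. Of 17 p53 targets and death receptor genes 1 was lower, Ccng1 (−0.47), which was at 7.01 to 7.16 and at 6.52 to 6.72. Its mean in vehicle rats was 6.32, so the 200 mg/kg rats stood nearer to vehicle than the 100 mg/kg rats did. In the cell cycle list Myc was higher in all rats at 200 mg/kg, at 5.21 to 6.54 against 3.95 to 4.66, and 0 of 23 genes were lower (median 0.14). The circadian clock list had 10 of 13 genes below 0 and a median of −0.23, further from 0 than the PPARα, urea and acute phase lists, with none at the threshold. Sulfation and methylation (median −0.15) had 3 of 16 lower, and heme synthesis and breakdown (−0.13) had 11 of 14 below 0, with 1 gene at the threshold in each direction.

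Interferon and antigen processing genes had 28 of 33 members above 0 (median 0.19), with 3 higher at an unadjusted p under 0.05 and 0 lower. Psmb10, an immunoproteasome subunit, was at 6.38 to 6.52 and at 6.85 to 7.26 (difference 0.63), and Ifit2 and Irf1 differed by 0.56 and 0.51. This list rested on 1 rat: without rat 3 at 200 mg/kg 16 of 33 were above 0, the median was −0.02, and 2 were higher and 2 lower; without rat 1 or rat 2 at that dose 6 were higher.

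Kupffer cell markers, of the resident macrophages, had 7 of 8 above 0, a median of 0.24 and 3 higher at the threshold, and their summed intensity ran from 1779 to 2363 units at 100 mg/kg and from 2113 to 3054 at 200 mg/kg. The 5 cholangiocyte markers compared, of bile duct cells, were all below 0 with 2 lower at the threshold, and their sums were 322.1 to 326.5 units at 100 mg/kg and 206.3 to 262.0 at 200 mg/kg. The sums of hepatocyte markers were 46290 to 50600 and 38750 to 45980 units. Of the listed markers, 8 of 10 for Kupffer cells, 6 of 7 for cholangiocytes and 8 of 9 for hepatocytes had a probe set of their own. None of these was empty in all 6 rats. The Kupffer cell marker below 0 was Cd163 (−0.31). Of the 5 cholangiocyte intervals, 1 lay within a 2-fold change. The part of cell numbers in the differences given here was not tested.

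**Figure D5:**
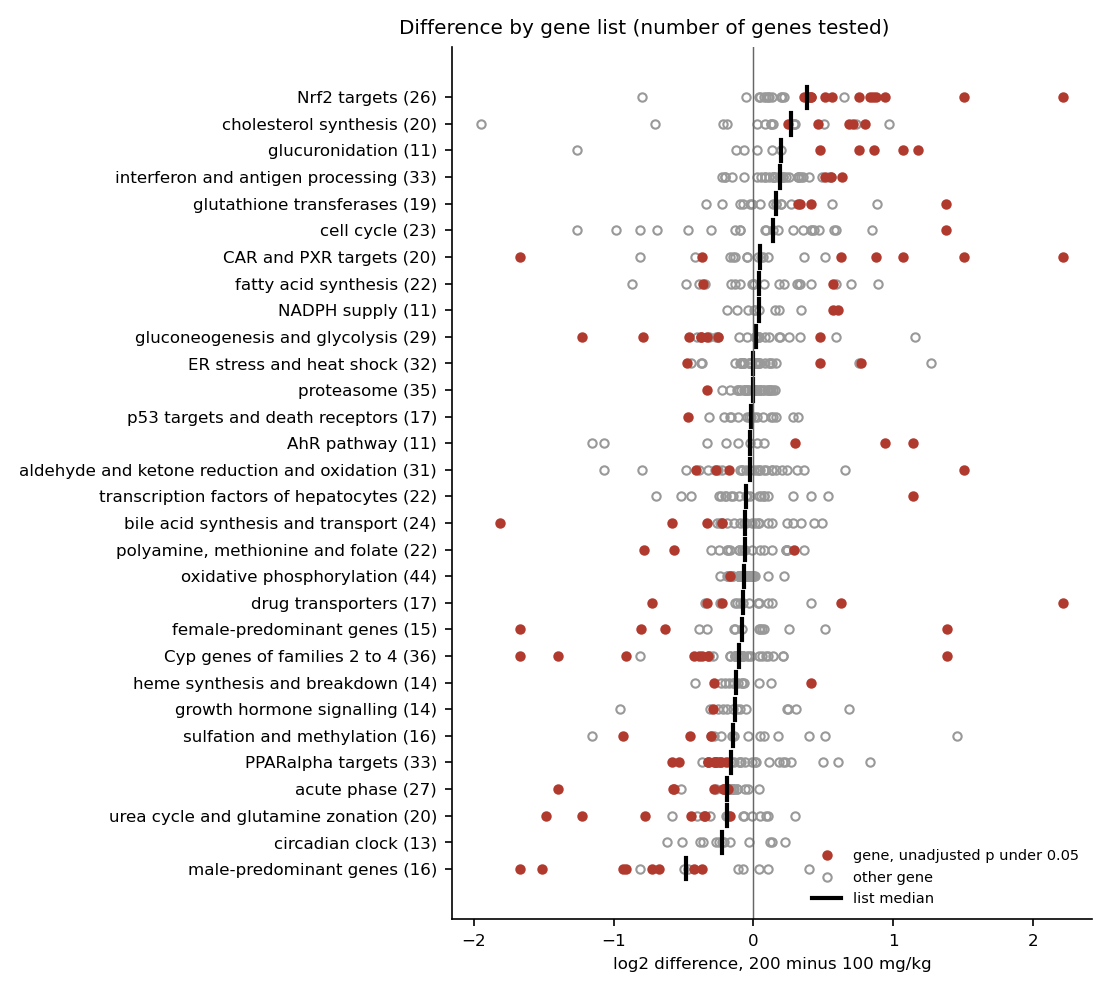
Log2 difference (200 minus 100 mg/kg, x axis) of the genes of the 30 pathway lists (y axis, number of genes compared in brackets); filled red points have an unadjusted p under 0.05 and black bars are list medians. Medians run from −0.48 (male-predominant genes) to 0.38 (Nrf2 targets).

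Differences of the single doses from vehicle are given side by side only, since they share the vehicle arrays and the arrays compared above. Ephx1 differed from vehicle by −0.06, 0.59 and 1.47 at 30, 100 and 200 mg/kg, and passed the test at 200 mg/kg (adjusted p = 0.0009523). Akr7a3 differed by 0.39, 2.16 and 3.66, and passed at 200 mg/kg. Gsta3 differed by 1.61, 3.60 and 4.98, and passed at 100 and 200 mg/kg (adjusted p = 0.0009062 and 1.594e-05). For all 3 genes the 200 mg/kg difference was the largest, while the step from 100 mg/kg itself did not pass.

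A few probe sets had values at 1 dose only. In 44 all 3 rats at 200 mg/kg had a value and none at 100 mg/kg did, and in 62 the reverse. Nearly all were dim: 5 of the 44 and 4 of the 62 had means above the floor. The highest bound in each direction was 1.31-fold, for Bad, a gene of the apoptotic machinery, at 4.50, 4.40 and 3.80 in the 200 mg/kg rats, and 1.14-fold, for Spink1, a trypsin inhibitor, at 4.03, 3.92 and 4.13 in the 100 mg/kg rats. Both bounds assume that an empty value lies under the floor, and both Bad and Spink1 had values in all vehicle and 30 mg/kg rats. Of the 3 probe sets of Spink1, the 1 compared differed by −0.64.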

How the data were processed

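The values deposited by the authors are intensities on the log10 scale from Rosetta Resolver (version 7.2 in the study's methods). No source used here describes the background correction or the scaling of arrays. A deposited table of each treated rat's fold over vehicle holds the study's own comparisons and was not used. The intensities were converted to log2 with no added normalization, and empty values counted as missing.

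A limma model (3.58.1, R 4.3.3) covered all 4 groups (8 residual degrees of freedom where no value was empty), with a variance trend. The contrast was 200 minus 100 mg/kg, 2-sided, with Benjamini-Hochberg adjustment over 21886 probe sets at a threshold of 0.05. Replicates are separate rats. Data were also simulated for this contrast with the real spread of 21886 probe sets, drawn independently and with no shift shared by probe sets. There the test called 72% of 100 bright probe sets with a 2-fold change and 98% of 100 with a 4-fold change. It also called 7 unchanged ones. In the real arrays the brightest probe sets shifted together in rats 1 and 2 at 200 mg/kg. These shares therefore do not tell how many real changes were missed.

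Of the probe sets compared, 15576 have 1 symbol in the platform annotation, 371 several and 5939 none; symbols were updated through RefSeq (GRCr8). The probe set of highest mean stands for a gene. Members, lists and the naming rule were chosen with earlier results of these data known. The rule takes the 10 genes of smallest p without overlap in each direction, the 2 of smallest p in each list, the genes the paper names for rat liver, and those of highest level with values at 1 dose only. A further 37 list members and genes were named after their values were seen. Lists are described by counts and medians without a test. The alternatives tried are given in the closing section.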

Additional observations from a re-analysis of the deposited data

How the results depend on the processing

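The count of probe sets called at an adjusted p under 0.05 was 0 in both directions under every scaling, filter and variance model tried except the floor under dim and empty values, which called 2 higher (Zfyve1 and Aqp5, both empty or below the floor in all 3 rats at 100 mg/kg). Leaving out 1 rat gave 0 to 2 calls higher and 0 to 2 lower: without rat 2 at 100 mg/kg Ephx1 (1.04, adjusted p = 0.02784) and Abcc3 (2.70, 0.03976) were called higher and Apoa4 (−0.95, 0.01267) and Trappc5 (−1.08, 0.03976) lower, and without rat 1 at 200 mg/kg Lime1 was called lower. The cause was not tested. With 1 probe set per gene, fewer were tested, and unadjusted p-values under 0.05 numbered 382 higher and 418 lower. Both Ahr and Nfe2l2, whose intervals spanned 0, changed sign when 1 rat was left out: Ahr ran from −0.48 to 0.10, the latter without rat 1 at 100 mg/kg, and Nfe2l2 from −0.053 to 0.15, below 0 without that rat or rat 3 at 200 mg/kg. Most named genes were chosen by p, lack of overlap or their values in this contrast, so their direction under the alternatives is no measure of stability. Same-numbered rats of the 2 doses did not deviate together (correlations of 0.031, −0.026 and −0.006), so the numbers do not pair the rats; with a replicate block 0 were called, and unadjusted p-values under 0.05 numbered 631 higher and 679 lower. With 3 arrays a group, dim genes and differences under 2-fold are the least certain.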
